A study of Mus musculus with 24 samples.

Results

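Transcripts of 10 mouse genes that hepatocytes use to make, conjugate, export and take up bile acids were followed in preparations of intrahepatic cholangiocytes, the epithelial cells that line the bile ducts inside the liver. The genes were chosen by name as a pathway: Cyp7a1, Cyp8b1, Cyp27a1 and Cyp7b1 for synthesis, Slc27a5 and Baat for conjugation, Abcb11, Abcb4 and Abcc2 for export and Slc10a1 for uptake. All 10 were found among the 49315 gene rows of each of the 24 count tables, and all 10 passed the filter on low counts in each fit. Every level is set beside Alb, the gene of serum albumin and a defining hepatocyte transcript that is not part of the set.

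Hepatocytes turn cholesterol into bile acids by a classical route, which opens with Cyp7a1, and an alternative route, which opens with Cyp27a1 and continues with Cyp7b1. Cyp8b1 directs the product towards cholic acid, Slc27a5 activates bile acids to their coenzyme A esters and Baat joins these to taurine or glycine. The bile salts then leave through the canalicular pump Abcb11, while Abcb4 moves phosphatidylcholine and Abcc2 organic anion conjugates into bile, and Slc10a1 on the sinusoidal side brings bile salts back from blood. Cholangiocytes are not known for these synthesis steps, so in a cholangiocyte preparation the transcripts also reflect how much hepatocyte RNA it holds.

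The 8 groups of 3 libraries were male and female wild-type (WT) mice, secretin-infused WT mice, dnTGFB mice and secretin-infused dnTGFB mice. The groups follow the titles. The genotype label disagrees with the title in the 12 libraries of WT secretin and of dnTGFB without secretin. The dnTGFB mouse carries a dominant-negative TGF-β receptor II, which in the standard line is driven in T cells by a Cd4 promoter, and it serves as a model of primary biliary cholangitis. Secretin, a gut hormone that acts on bile duct cells, was infused from osmotic minipumps at a daily 4 µg per kg for 8 weeks. WT mice without secretin were killed at 32 weeks of age and mice with secretin at 40 weeks, so age and secretin cannot be told apart. The age of the dnTGFB mice without secretin was not stated in the sources used here. The cells of 6 to 8 mice were pooled per group, isolated by antibody on magnetic beads, and 3 libraries were sequenced from the RNA of every pool. There was thus 1 pool of mice per group, and the p-values speak of the spread among repeat libraries, not among mice. In such bulk samples fewer hepatocytes and less RNA per hepatocyte cannot be told apart.

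Libraries of a group did not always hold the same cells. Total counts were 15225605 to 30203330 in 11 male libraries, 1429218 in male dnTGFB library 3 and 6483182 to 104003184 in females. Summed hepatocyte markers, 25 genes in CPM (counts scaled to a common library total), ranged from 536 to 30251 CPM, and were 16093 CPM in male WT library 1 against 5139 and 5008 CPM in its replicates. Heart muscle markers, 12 genes, summed to between 69625 and 78425 CPM in libraries 2 and 3 of female WT secretin and in libraries 1 and 2 of female dnTGFB, to 21355 CPM in male dnTGFB library 3 and to at most 3555 CPM elsewhere. The Y-linked gene Ddx3y was at 46.8 to 64.3 CPM in these 4 female libraries and no higher than 6.02 CPM in the remaining female ones, and male WT secretin libraries carried Xist at 34.0 to 42.4 CPM. Female WT library 2 and female dnTGFB secretin library 1 differed from each other by a chi-square of 1.17 per gene, near the value of 1 that repeat sequencing gives, although the nearest library of their own groups was at 10.7 and 29.3. Female WT secretin library 1 was likewise nearest to female dnTGFB secretin library 3, at 1.46. Male WT library 1 was nearest to male dnTGFB library 2, at 7.32, with the nearest library of its own group at 40.5. Male dnTGFB library 3 was nearest to female dnTGFB library 1, at 35.0, with its own group at 79.5. The nearest library was of the same group for 10 of 12 male and 6 of 12 female libraries. Krt19 and Epcam, which mark bile duct cells, were above 0 in all 24 libraries, at 17.4 to 359 and 7.13 to 299 CPM on the scale of normalised counts used below.

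Because of this, the edgeR tests of the set are given with all libraries and again without 8 libraries that stand apart. Tests of the other pathway genes are given with all libraries, except for some values between the sexes. Results of DESeq2 and of the test over pools are given with all libraries only. The 8 libraries include male WT library 1, male dnTGFB library 3, female WT library 2 and female dnTGFB secretin library 1. The others are libraries 2 and 3 of female WT secretin and libraries 1 and 2 of female dnTGFB. Male WT library 1 differs from its replicates in hepatocyte transcripts themselves, so leaving it out selects on the quantity measured here. The fit without these libraries is therefore a description and is no support for a direction. It also leaves 1 library each in female WT secretin and female dnTGFB, where that library is assumed to vary like the other groups.

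RefSeq promoter sequences were available for 6 of the 10 genes (GRCm38.p6). Of these 6, Slc10a1 and Abcb11 had the highest correlation with Alb over the libraries and Abcb4 and Cyp27a1 the lowest, and Cyp8b1 passed the test in both male secretin comparisons, so these 5 are shown as the 250 bases before the transcription start, 5′ to 3′ on the gene's strand. Capitals mark matches on either strand to AGGTCA (the core motif of nuclear receptors, or its complement TGACCT), to CAAAGTCCA (an HNF4A-type site), to TATAAA (the TATA box) or to GGGCGG (the GC box, or its complement CCGCCC). No marked motifs overlap. RefSeq lists 2 starts for Slc10a1, and the one that adjoins the annotated gene is shown.
Slc10a1, chr12:80968080-80968329, minus strand: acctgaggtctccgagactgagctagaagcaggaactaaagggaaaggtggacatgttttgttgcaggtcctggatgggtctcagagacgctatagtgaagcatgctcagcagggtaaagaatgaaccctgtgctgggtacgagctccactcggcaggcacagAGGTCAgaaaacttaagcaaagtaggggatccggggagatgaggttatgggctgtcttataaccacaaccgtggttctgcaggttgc
Abcb11, chr2:69342617-69342866, minus strand: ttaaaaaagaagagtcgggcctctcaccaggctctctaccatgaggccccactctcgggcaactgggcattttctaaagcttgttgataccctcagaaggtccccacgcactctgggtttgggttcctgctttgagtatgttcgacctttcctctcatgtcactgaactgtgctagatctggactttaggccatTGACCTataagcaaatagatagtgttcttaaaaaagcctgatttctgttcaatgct
Cyp8b1, chr9:121916306-121916555, minus strand: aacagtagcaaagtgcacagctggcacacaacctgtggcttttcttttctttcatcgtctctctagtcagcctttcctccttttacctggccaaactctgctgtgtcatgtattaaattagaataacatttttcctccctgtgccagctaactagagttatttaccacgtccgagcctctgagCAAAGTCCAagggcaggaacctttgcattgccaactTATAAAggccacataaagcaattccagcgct
Abcb4, chr5:8893471-8893720, plus strand: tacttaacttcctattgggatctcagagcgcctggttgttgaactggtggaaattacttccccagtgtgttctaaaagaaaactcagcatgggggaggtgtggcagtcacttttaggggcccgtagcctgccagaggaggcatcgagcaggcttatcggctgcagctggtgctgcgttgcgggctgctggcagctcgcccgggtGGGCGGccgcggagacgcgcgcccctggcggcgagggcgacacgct
Cyp27a1, chr1:74713285-74713534, plus strand: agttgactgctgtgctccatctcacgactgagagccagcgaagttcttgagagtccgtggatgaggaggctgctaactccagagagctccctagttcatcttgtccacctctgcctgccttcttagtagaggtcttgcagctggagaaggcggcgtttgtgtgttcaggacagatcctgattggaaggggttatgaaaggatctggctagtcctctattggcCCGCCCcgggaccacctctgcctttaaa
The core motif began 87 bases before the start in Slc10a1 and 56 in Abcb11, and Cyp8b1 held the HNF4A-type site from 67 and the TATA box from 31 bases before it. GC boxes began 46 bases before the start in Abcb4 and 28 in Cyp27a1. The GC content was 52.0% in Slc10a1, 46.4% and 44.8% in Abcb11 and Cyp8b1, 61.6% and 54.0% in Abcb4 and Cyp27a1, and had a median of 52.4% over 32851 promoters. Over those promoters the core motif occurred in 14.0%, the HNF4A-type site in 0.384%, the TATA box in 12.4% and the GC box in 32.7%. A match describes the letters of this window and is not evidence of binding.

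Levels are given next in CPM normalised by TMM over the 24 libraries, in the order of libraries 1, 2 and 3 of each group. Alb sets the scale of hepatocyte RNA. Alb was 7747, 1510.1 and 1498 CPM in male WT, 8674, 8896 and 9175 in male WT secretin, 12700.0, 12250.4 and 1451 in male dnTGFB and 1778, 1756 and 1766 in male dnTGFB secretin. Female values were 11072, 16258 and 10361 CPM in untreated WT, 2980.0, 346 and 627 in WT mice given secretin, 816, 1106 and 7160.1 in untreated dnTGFB and 16178, 4333 and 2614 in dnTGFB mice given secretin. Within 5 of the 8 groups a library thus differed severalfold from another, and only male WT secretin, male dnTGFB secretin and female WT were compact. Alb did not overlap between WT and WT secretin in either sex, or between female WT and female dnTGFB. Where groups are said below not to overlap, 3 libraries of 1 pool are set against 3 of another. The share of all genes that separate in the same way was not counted.

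**Figure D1:**
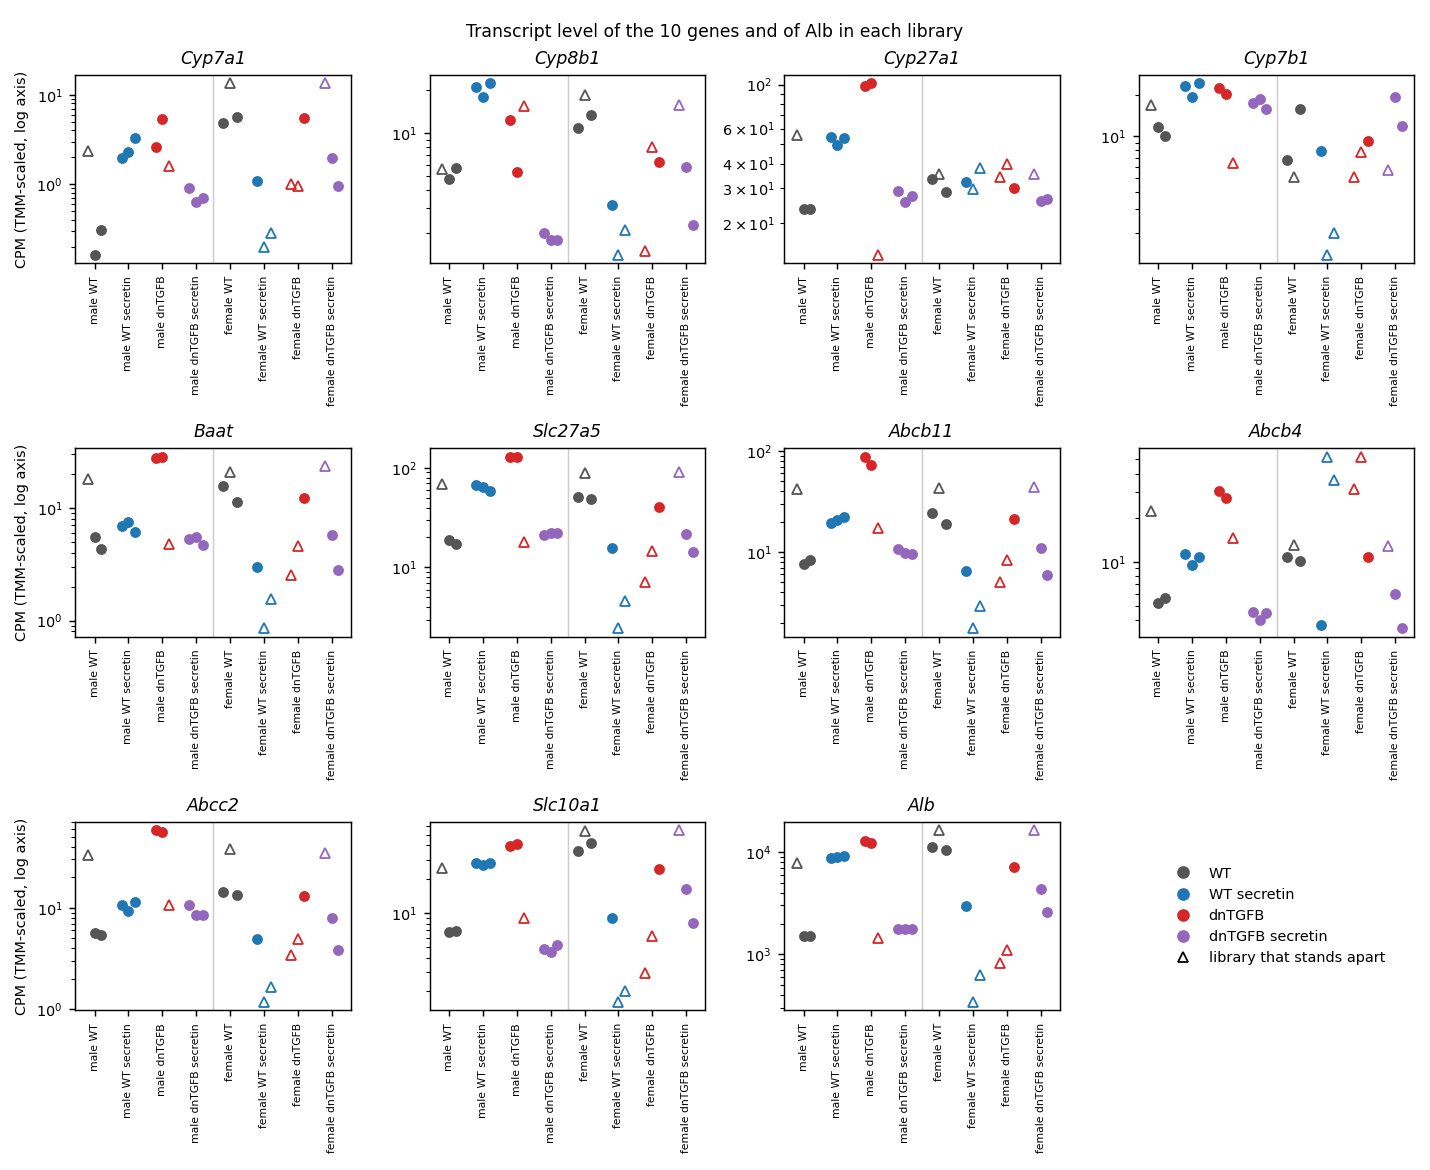
Level of each of the 10 genes and of Alb in every library, in TMM-normalised CPM on a log axis, by group, with male groups left of the grey line. Filled circles are the 16 other libraries, open triangles the 8 that stand apart. Most panels repeat the pattern of Alb, whose values run from 346 to 16258 CPM, whereas Abcb4 is highest where Alb is lowest.

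Cyp7a1, the rate-limiting enzyme of the classical route (chromosome 4, 6265612 to 6275633, minus strand), was the scarcest of the set. Its reads numbered 3 to 311 per library. In males it was at 2.35, 0.164 and 0.309 CPM in untreated WT, 1.97, 2.27 and 3.29 in WT mice given secretin, 2.64, 5.32 and 1.60 in untreated dnTGFB and 0.907, 0.633 and 0.705 in dnTGFB mice given secretin. Female libraries held 4.81, 13.4 and 5.63 CPM in untreated WT, 1.10, 0.199 and 0.283 in WT mice given secretin, 1.02, 0.965 and 5.50 in untreated dnTGFB and 13.5, 1.98 and 0.956 in dnTGFB mice given secretin. Male dnTGFB secretin lay wholly below male dnTGFB, while male WT overlapped every other male group. Female WT secretin lay wholly below female WT, as it did for Alb.

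Cyp8b1, the 12α-hydroxylase of cholic acid synthesis (chromosome 9, 121914356 to 121916305, minus strand), separated some male groups that overlap in Alb. It stood at 5.56, 4.76 and 5.68 CPM in male WT, 20.9, 18.0 and 22.4 in male WT secretin, 12.3, 5.32 and 15.5 in male dnTGFB and 2.01, 1.79 and 1.78 in male dnTGFB secretin. In females the values were 10.9, 18.5 and 13.5 CPM in untreated WT, 3.13, 1.41 and 2.08 in WT mice given secretin, 1.49, 7.99 and 6.31 in untreated dnTGFB and 15.7, 5.74 and 2.28 in dnTGFB mice given secretin. Male WT secretin was above all other male libraries and male dnTGFB secretin below them, with no overlap. Unlike Alb, Cyp8b1 did not stand out in male WT library 1.

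Cyp27a1, the mitochondrial sterol 27-hydroxylase (chromosome 1, 74713574 to 74737892, plus strand), hardly moved in females. Its female levels were 33.6, 35.4 and 28.9 CPM in untreated WT, 32.2, 29.8 and 38.2 in WT mice given secretin, 34.4, 39.9 and 30.1 in untreated dnTGFB and 35.5, 25.9 and 26.6 in dnTGFB mice given secretin, so that all 4 groups overlapped. Male levels were 55.5, 23.5 and 23.6 CPM in untreated WT, 54.7, 49.8 and 53.7 in WT mice given secretin, 98.2, 101.8 and 13.9 in untreated dnTGFB and 29.0, 25.6 and 27.4 in dnTGFB mice given secretin. The 2 deeper male dnTGFB libraries were the highest of all, and the shallow library 3 was the lowest.

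Cyp7b1, the oxysterol 7α-hydroxylase of the alternative route (chromosome 3, 18071950 to 18243338, minus strand), is known to be male-biased in mouse liver. Males had 16.7, 11.7 and 10.1 CPM in untreated WT, 23.2, 19.4 and 24.2 in WT mice given secretin, 22.4, 20.3 and 6.42 in untreated dnTGFB and 17.4, 18.4 and 15.8 in dnTGFB mice given secretin. Females had 6.75, 5.12 and 15.8 CPM in untreated WT, 7.86, 1.41 and 2.01 in WT mice given secretin, 5.09, 7.67 and 9.26 in untreated dnTGFB and 5.76, 19.1 and 11.8 in dnTGFB mice given secretin. Male WT secretin exceeded male WT without overlap, and the ranges of both sexes overlapped.

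Of the conjugating enzymes, Slc27a5 followed Alb closely and Baat less so. Slc27a5, the bile acid CoA ligase (chromosome 7, 12988346 to 12998192, minus strand), was at 69.3, 18.7 and 17.2 CPM in male WT, 66.5, 64.7 and 58.6 in male WT secretin, 129.1, 129.6 and 18.2 in male dnTGFB and 21.4, 22.3 and 22.1 in male dnTGFB secretin. Its female values were 50.7, 88.2 and 48.3 CPM in untreated WT, 15.8, 2.46 and 4.65 in WT mice given secretin, 7.19, 14.5 and 40.4 in untreated dnTGFB and 90.2, 21.9 and 14.2 in dnTGFB mice given secretin. Baat, the amino acid N-acyltransferase (chromosome 4, 49489422 to 49506557, minus strand), measured 18.1, 5.50 and 4.33 CPM in male WT, 6.93, 7.53 and 6.12 in male WT secretin, 27.8, 28.4 and 4.81 in male dnTGFB and 5.31, 5.49 and 4.63 in male dnTGFB secretin. In the male WT secretin pool Baat stayed near WT libraries 2 and 3, although Alb there was close to that of WT library 1. Female Baat was 15.5, 20.8 and 11.2 CPM in untreated WT, 2.97, 0.855 and 1.56 in WT mice given secretin, 2.55, 4.58 and 12.3 in untreated dnTGFB and 23.4, 5.76 and 2.81 in dnTGFB mice given secretin. For both genes, female WT secretin lay below female WT without overlap, as it did for Alb. Libraries 2 and 3 of that secretin group were rich in heart muscle transcripts.

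Among the exporters, Abcb11, the bile salt export pump (chromosome 2, 69238282 to 69342616, minus strand), was at 41.7, 7.55 and 8.27 CPM in male WT, 19.2, 20.5 and 22.4 in male WT secretin, 88.0, 72.4 and 17.1 in male dnTGFB and 10.7, 9.74 and 9.65 in male dnTGFB secretin. Female Abcb11 was 24.6, 43.3 and 18.9 CPM in untreated WT, 6.54, 1.76 and 2.90 in WT mice given secretin, 5.02, 8.41 and 21.3 in untreated dnTGFB and 44.1, 10.9 and 5.94 in dnTGFB mice given secretin. Both male dnTGFB libraries 1 and 2 exceeded every other library for this gene. Abcc2, the canalicular organic anion pump (chromosome 19, 43782192 to 43840740, plus strand), held 33.5, 5.62 and 5.45 CPM in male WT, 10.8, 9.36 and 11.4 in male WT secretin, 58.3, 56.4 and 10.7 in male dnTGFB and 10.6, 8.55 and 8.58 in male dnTGFB secretin. For females the Abcc2 levels were 14.3, 38.0 and 13.3 CPM in untreated WT, 4.94, 1.19 and 1.68 in WT mice given secretin, 3.46, 4.97 and 13.0 in untreated dnTGFB and 34.9, 7.87 and 3.87 in dnTGFB mice given secretin. Male dnTGFB secretin was below male dnTGFB without overlap for both pumps, by a small margin in Abcc2.

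Abcb4, the phosphatidylcholine floppase of the canalicular membrane (chromosome 5, 8893717 to 8959231, plus strand), had the reverse pattern in part of the female libraries. Female levels were 10.7, 13.1 and 10.1 CPM in untreated WT, 3.68, 52.2 and 36.0 in WT mice given secretin, 31.5, 52.2 and 10.8 in untreated dnTGFB and 12.8, 6.02 and 3.52 in dnTGFB mice given secretin. The 4 highest values, 31.5 to 52.2 CPM, were those of the 4 libraries rich in heart muscle transcripts, where Alb was 346 to 1106 CPM, and the part of heart muscle RNA in this was not tested. Male Abcb4 was 22.2, 5.21 and 5.68 CPM in untreated WT, 11.3, 9.51 and 10.7 in WT mice given secretin, 30.3, 27.4 and 14.4 in untreated dnTGFB and 4.50, 4.01 and 4.47 in dnTGFB mice given secretin.

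Slc10a1, the sodium-dependent bile salt importer of the sinusoidal membrane (chromosome 12, 80953185 to 80968079, minus strand), tracked Alb most closely. It measured 25.3, 6.77 and 6.88 CPM in male WT, 28.0, 26.9 and 27.8 in male WT secretin, 39.7, 41.6 and 9.09 in male dnTGFB and 4.73, 4.47 and 5.21 in male dnTGFB secretin. Among females it was 35.8, 53.7 and 42.5 CPM in untreated WT, 9.06, 1.62 and 2.01 in WT mice given secretin, 2.92, 6.19 and 24.7 in untreated dnTGFB and 54.8, 16.4 and 8.20 in dnTGFB mice given secretin. Each female WT library was above each female WT secretin and untreated dnTGFB library, which also holds for Alb.

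Per kilobase of exon (RPKM, the median level over 24 libraries), the order was Cyp27a1 at 15.1, Slc27a5 at 9.10, Slc10a1 at 7.61, Cyp7b1 at 5.43, Cyp8b1 at 2.93, Baat at 2.90, Abcb11 at 2.72, Abcc2 at 1.17, Abcb4 at 1.15 and Cyp7a1 at 0.429, against 1561 for Alb. Neighbours in this order overlapped widely, since the RPKM of each gene spanned between 7.33-fold (Cyp27a1) and 82.1-fold (Cyp7a1). Across the 24 libraries, Pearson's r with Alb on the log2(CPM + 1) scale was 0.98 for Slc10a1, 0.95 for Slc27a5, 0.89 for Abcb11, 0.88 for Baat, 0.86 for Cyp7a1, 0.84 for Abcc2, 0.73 for Cyp8b1, 0.52 for Cyp7b1, 0.51 for Cyp27a1 and −0.13 for Abcb4. With Myh6, a heart muscle myosin gene, r was 0.56 for Abcb4 and between −0.76 and −0.28 for the other 9. These coefficients describe libraries that share pools, and carry no test. The 5 genes most like the mean of the set over the 24 libraries, of 10104 protein-coding genes ranked, were Cyp2a12 (r = 0.980), Pemt, which makes phosphatidylcholine in hepatocytes (0.978), Proz (0.977), Slc6a13 (0.974) and Marc1 (0.974). None of the 5 is among the hepatocyte markers used here.

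**Figure D2:**
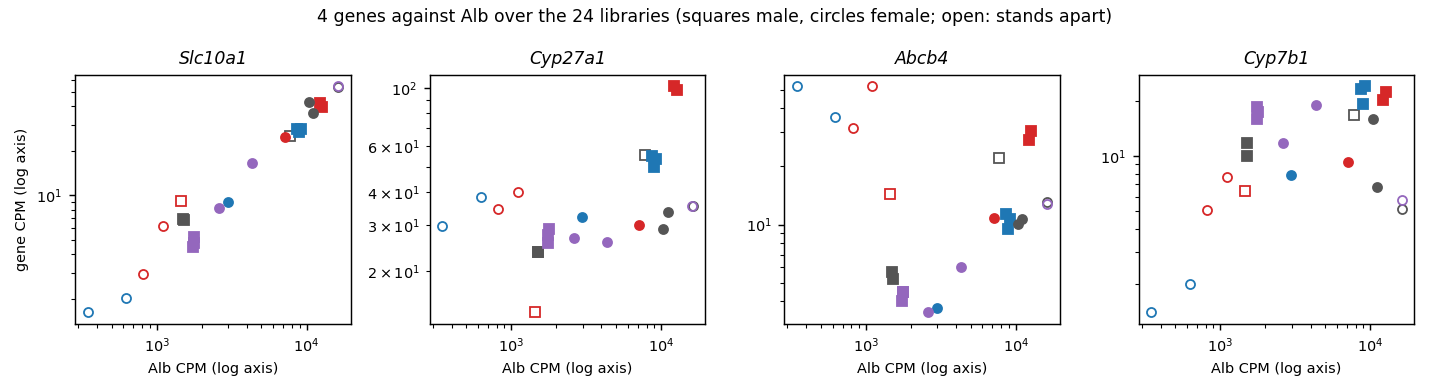
Level of 4 genes against Alb in the 24 libraries, both in TMM-normalised CPM on log axes. Squares are male and circles female libraries, colours are as in the plot of levels, and open symbols are the libraries that stand apart. Slc10a1 lies along a line (r = 0.98), Cyp27a1 and Cyp7b1 scatter (0.51 and 0.52), and Abcb4 has its highest points at the lowest Alb (−0.13).

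In males, the comparison of dnTGFB with WT asked what the transgene changes. With all libraries, none of the 10 genes passed edgeR's quasi-likelihood test at a Benjamini-Hochberg adjusted p under 0.05, where 17.0% of the 18777 genes tested were called in either direction. At an unadjusted p under 0.05 there were 7, and DESeq2 called 2 higher, with 13.0% of all genes. All 10 estimates were positive, with log2 fold changes from 0.45 (Cyp7b1) to 1.90 (Cyp7a1, SE 0.79, adjusted p = 0.120) and a median of 1.26, against 0.01 over all genes. Alb itself differed by 1.31 ± 0.76 (SE, adjusted p = 0.245). Under library totals as the only scaling Cyp7b1 turned to −0.13, while the median of all genes moved to −0.44. In the same libraries 10 of 12 bile duct markers fell, with a median of −1.52, and 0 of 25 hepatocyte markers passed. Of other cell types, 8 of 8 neuron markers rose (median 3.94), while 6 of 6 B cell markers (−3.56) and 7 of 8 macrophage markers (−1.27) fell. Mitochondrial transcripts made up 55.1%, 55.0% and 11.4% of counts in dnTGFB libraries 1, 2 and 3 and 42.8%, 9.73% and 9.75% in WT. The part of these differences in the members' values was not tested. Without WT library 1 and dnTGFB library 3, 10 of the 10 genes were called higher, where 22.3% of all genes were. Cyp7a1 was then 4.05 ± 0.54 (adjusted p = 1.31e-06), Abcc2 3.38 ± 0.15, Abcb11 3.34 ± 0.13, Slc27a5 2.86 ± 0.09, Slc10a1 2.58 ± 0.13, Baat 2.52 ± 0.19, Abcb4 2.41 ± 0.17, Cyp27a1 2.09 ± 0.09, Cyp7b1 0.98 ± 0.15 and Cyp8b1 0.73 ± 0.26 (adjusted p = 0.0259). Alb was 3.06 higher and 25 of 25 hepatocyte markers were called higher in that fit. Leaving out WT library 1 alone gave 7 called higher (10.9% of all genes) and dnTGFB library 3 alone 6 (14.7%).

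In male WT mice 1 gene of the set was higher in the secretin group. Cyp8b1 rose by 1.91 ± 0.31 on the log2 scale (adjusted p = 0.00625), with each treated library above each WT library, and 3.55% of all genes were called higher. For the other 9 the estimates ran from −0.52 (Abcc2) to 1.40 (Cyp7a1, SE 0.76, adjusted p = 0.333), and the median of the 10 was 0.68 against 0.00 over all genes. Alb differed by 1.29 ± 0.76 (adjusted p = 0.376). The treated libraries held Xist, 5 of 6 B cell markers fell in them, and their mitochondrial share was 19.4% to 19.5%. The part of these in the difference was not tested. Without the 2 male libraries that stand apart all 10 were called higher, where 19.9% of all genes were: Cyp7a1 by 3.33 ± 0.51, Slc10a1 by 1.99 ± 0.12, Cyp8b1 by 1.94 ± 0.23, Slc27a5 by 1.79 ± 0.08, Abcb11 by 1.35 ± 0.12, Cyp27a1 by 1.13 ± 0.08, Cyp7b1 by 1.00 ± 0.13, Abcb4 by 0.92 ± 0.16, Abcc2 by 0.90 ± 0.14 and Baat by 0.46 ± 0.17. Alb was 2.54 higher in that fit, and 22 of 25 hepatocyte markers were called higher. Without WT library 1 alone, 3 genes were called higher, where 3.43% of all genes were. This comparison and the preceding one share the WT libraries.

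Between secretin-infused and untreated male dnTGFB mice, 7 of the 10 genes fell, where 12.4% of all genes were called lower: Slc10a1 by 2.74 ± 0.57 (adjusted p = 0.0105), Abcb11 by 2.63 ± 0.67 (0.0208), Cyp8b1 by 2.55 ± 0.34 (0.000991), Abcb4 by 2.55 ± 0.51 (0.00882), Abcc2 by 2.26 ± 0.70 (0.0407), Slc27a5 by 2.13 ± 0.64 (0.0363) and Baat by 2.09 ± 0.59 (0.0292). Cyp7a1, at −2.23 ± 0.79 (adjusted p = 0.0647), and Cyp27a1, at −1.45 ± 0.53 (0.0712), did not pass, and Cyp7b1 was at −0.04 ± 0.32 (0.943). The median was −2.24 against −0.05 over all genes. Alb was at −2.35 ± 0.79 (adjusted p = 0.0529), 13 of 25 hepatocyte markers fell (median −2.07) and 12 of 12 bile duct markers rose (median 2.42), so the fall of the 7 genes went with a higher content of bile duct transcripts. Macrophage markers rose (8 of 8, median 1.79), neuron markers fell (8 of 8, −2.75), and the mitochondrial share was 5.31% to 5.66% with secretin against 11.4% to 55.1% without. The part of these in the fall was not tested. Krt19 rose by 2.24 ± 0.29 and Epcam by 2.61 ± 0.24. Without the 2 male libraries that stand apart 10 of 10 fell, where 23.5% of all genes did, with Slc10a1 at −3.10 ± 0.12, Abcb11 at −3.02 ± 0.11, Abcb4 at −2.76 ± 0.15, Abcc2 at −2.65 ± 0.12, Slc27a5 at −2.58 ± 0.07, Baat at −2.47 ± 0.16, Cyp7a1 at −2.44 ± 0.41, Cyp8b1 at −2.24 ± 0.26, Cyp27a1 at −1.89 ± 0.07 and Cyp7b1 at −0.33 ± 0.13. The count with all libraries rests on each of them: it was 2, 2 and 3 without dnTGFB secretin library 1, 2 or 3, where 1.65%, 1.65% and 1.99% of all genes were called lower. It was 4 without dnTGFB library 1 (14.2%) or 2 (14.7%), and 9 without dnTGFB library 3 (18.4%). This comparison shares the dnTGFB libraries with that of genotype.

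**Figure D3:**
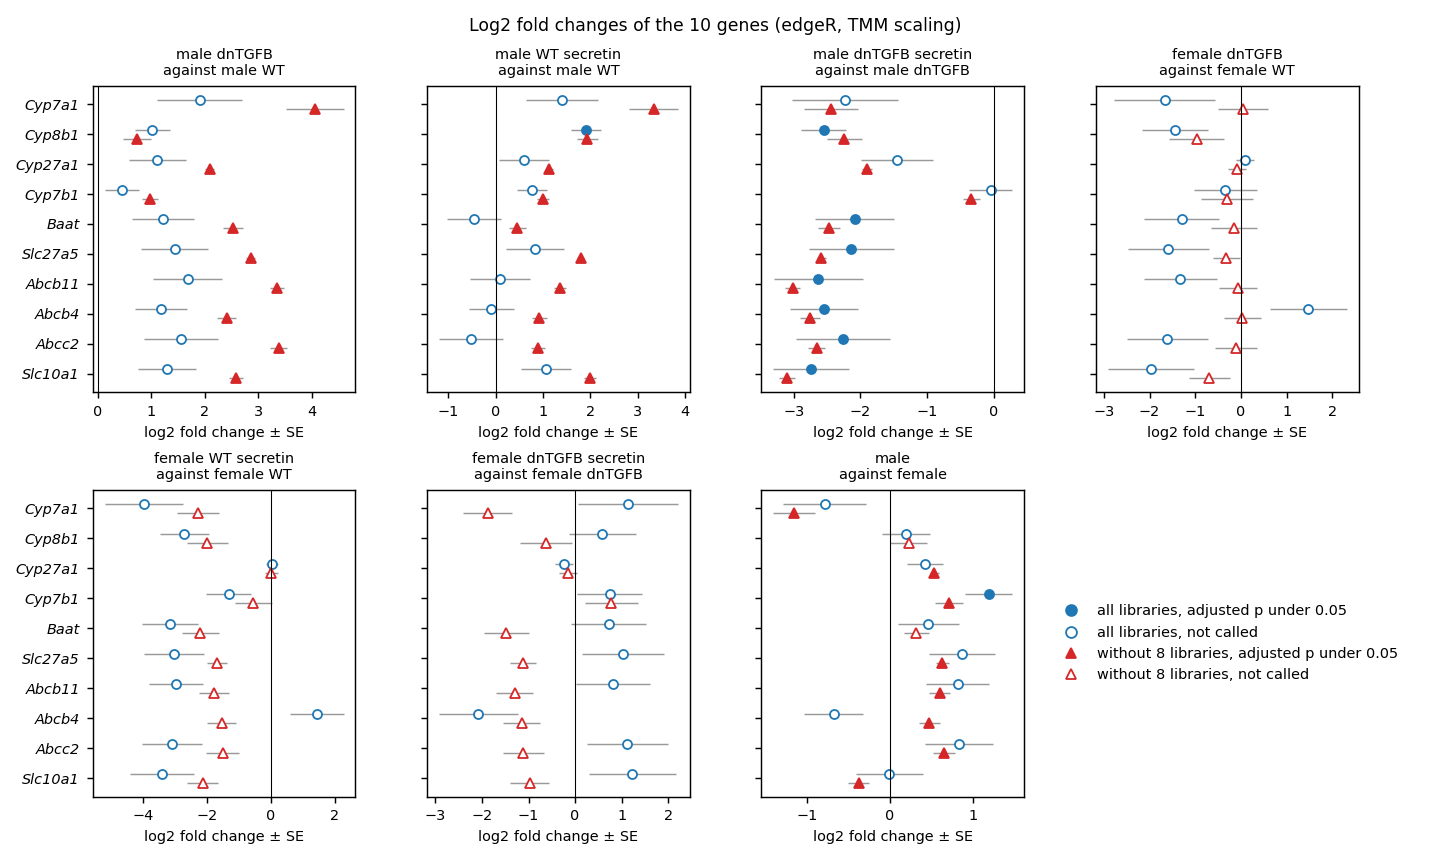
Log2 fold change of each of the 10 genes with its standard error in 7 comparisons, from all libraries (blue circles) and without the 8 libraries that stand apart (red triangles), where filled symbols have an adjusted p under 0.05. With all libraries, 7 genes are filled for male dnTGFB secretin against male dnTGFB, 1 for male WT secretin and 1 for male against female; no female comparison has a filled symbol.

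In females no gene of the set was called by edgeR in any of the 3 comparisons with all libraries. Neither was any other gene: 0.0% of 19882 genes passed in each. Between dnTGFB and WT, 8 of the 10 estimates were negative, from −1.97 (Slc10a1) to 1.47 (Abcb4), with Cyp7a1 at −1.67 ± 1.10 (adjusted p = 0.388). The median was −1.38 against 0.10 over all genes, and neither an unadjusted p under 0.05 (0 genes) nor DESeq2 (0, with 4.49% of all genes) singled out a member. For secretin in WT the estimates ran from −3.98 ± 1.23 (Cyp7a1, adjusted p = 0.140) to 1.44 (Abcb4), with 7 at an unadjusted p under 0.05 and 7 called lower by DESeq2, which called 4.61% of all genes lower. Their median was −3.01 against 0.11 over all genes. Without WT secretin library 1, the library of that group that is not rich in heart muscle transcripts, edgeR called 8 lower and 1 higher, where 25.7% of all genes were called in either direction. For secretin in dnTGFB the range was −2.08 (Abcb4) to 1.23 (Slc10a1) with a median of 0.78 against −0.02, Cyp7a1 was at 1.13 ± 1.08 (adjusted p = 0.551), 1 gene had an unadjusted p under 0.05 and DESeq2 called 0, with 2.24% of all genes.

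Without the libraries that stand apart the female estimates were −0.97 (Cyp8b1) to 0.05 (Cyp7a1, SE 0.55, adjusted p = 1.00) for dnTGFB against WT. They were −2.27 (Cyp7a1, SE 0.65, adjusted p = 0.474) to 0.01 (Cyp27a1) for secretin in WT and −1.88 (Cyp7a1, SE 0.53, adjusted p = 0.595) to 0.78 (Cyp7b1) for secretin in dnTGFB. At an unadjusted p under 0.05 there were 0, 8 and 6 genes in these comparisons. The secretin comparison in WT then rests on a single treated library that was close to female dnTGFB secretin library 3.

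Males and females, as labelled, were compared over all 24 libraries with the 4 conditions weighted equally. The labels are not clean: Ddx3y, which is Y-linked, reached 46.8 to 64.3 CPM in 4 of the libraries labelled female. Reads of Xist were present in male WT secretin too, between 34.0 and 42.4 CPM. That group remains when the libraries that stand apart are left out. Every comparison of the sexes, including the one over pools, is thus of labels, and the part of mixed sex was not tested. Cyp7b1 was higher in males by 1.19 ± 0.29 (log2, adjusted p = 0.00943), the only gene of the 10 to pass, where 7.87% of 20222 genes were called higher. The other estimates ran from −0.79 (Cyp7a1, SE 0.50, adjusted p = 0.249) to 0.87 (Slc27a5), with Alb at 0.09 ± 0.48, and the median of the 10 was 0.44 against −0.05 over all genes. In this contrast 12 of 12 heart muscle markers were lower in males (median −3.14), and their part in the members' values was not tested. The call for Cyp7b1 was not made under scaling by library totals. Without the libraries that stand apart 8 genes were called, where 20.5% of all genes were in either direction. Higher in males were Cyp7b1 by 0.71 ± 0.17 (adjusted p = 0.0108), Abcc2 by 0.65 ± 0.14, Slc27a5 by 0.63 ± 0.08, Abcb11 by 0.60 ± 0.13, Cyp27a1 by 0.53 ± 0.05 and Abcb4 by 0.47 ± 0.13, while Cyp7a1 at −1.15 ± 0.25 (0.00358) and Slc10a1 at −0.38 ± 0.13 (0.0475) were lower. The Cyp7b1 level relative to Alb, averaged per pool, was 1.03 higher in the 4 male pools than in the 4 female pools on the log2 scale, but the ranges overlapped (1.23 to 3.28 and −0.59 to 1.94). A two-sided exact permutation test over pools gave p = 0.286, where 0.0286 is the smallest p possible.

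The difference between the labelled sexes was also tested within each contrast, on all 24 libraries. For dnTGFB against WT 0 of 10 genes passed in edgeR (6.86% of all genes), for secretin in WT 0 of 10 (0.0%), and for secretin in dnTGFB 2 of 10 (7.75%), Cyp8b1 and Slc10a1. At an unadjusted p under 0.05 there were 7, 8 and 7, and DESeq2 was not run on these differences. Without the libraries that stand apart 8, 9 and 6 of the 10 were called, where 22.8%, 13.7% and 22.3% of all genes were.

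A second set of fits scaled each library by its Alb count, which asks whether a gene moved apart from Alb. Reads per 1000 Alb reads showed how tightly each gene kept to it: Slc10a1 spanned 2.46-fold over all 24 libraries, from 2.54 to 6.26, and Slc27a5 2.87-fold, from 4.58 to 13.1. Baat spanned 6.21-fold, Abcb11 6.46-fold, Abcc2 7.0-fold, Cyp7a1 11.5-fold, Cyp8b1 24.6-fold, Cyp7b1 33.3-fold, Cyp27a1 39.6-fold and Abcb4 190.0-fold. Over the 20 libraries not rich in heart muscle, Abcb4 spanned 12.5-fold and Cyp27a1 7.49-fold. Cyp7b1 still spanned 33.3-fold there.

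The ratio of Cyp7b1 to Alb set male dnTGFB secretin apart, and the ranges of the other male groups overlapped. It was 2.16, 7.77 and 6.71 reads per 1000 Alb reads in male WT, 2.68, 2.18 and 2.63 in male WT secretin, 1.77, 1.66 and 4.42 in male dnTGFB and 9.78, 10.5 and 8.97 in male dnTGFB secretin. Male dnTGFB secretin was above every other library of either sex. In CPM, however, its Cyp7b1 lay below that of male WT secretin, and its Alb was 1756 to 1778 CPM. The female ratios were 0.609, 0.315 and 1.53 in untreated WT, 2.64, 4.06 and 3.20 in WT mice given secretin, 6.24, 6.94 and 1.29 in untreated dnTGFB and 0.356, 4.40 and 4.51 in dnTGFB mice given secretin. Cyp27a1 had a like order in males, at 7.17, 15.6 and 15.8 in untreated WT, 6.31, 5.60 and 5.86 in WT mice given secretin, 7.73, 8.31 and 9.58 in untreated dnTGFB and 16.3, 14.6 and 15.5 in dnTGFB mice given secretin. Among males both ratios were highest in dnTGFB secretin and in WT libraries 2 and 3. In females the ratio of Abcb4 to Alb was 0.968, 0.803 and 0.977 for WT, 1.24, 151 and 57.4 for WT secretin, 38.6, 47.2 and 1.51 for dnTGFB and 0.793, 1.39 and 1.35 for dnTGFB secretin. The 4 libraries rich in heart muscle transcripts stood far above the rest. Baat per 1000 Alb reads was 0.667 to 0.846 in male WT secretin, below every library of the other 3 male groups, where it was 2.19 to 3.64, and Abcc2 was 1.05 to 1.25 there against 3.64 to 7.37.

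**Figure D4:**
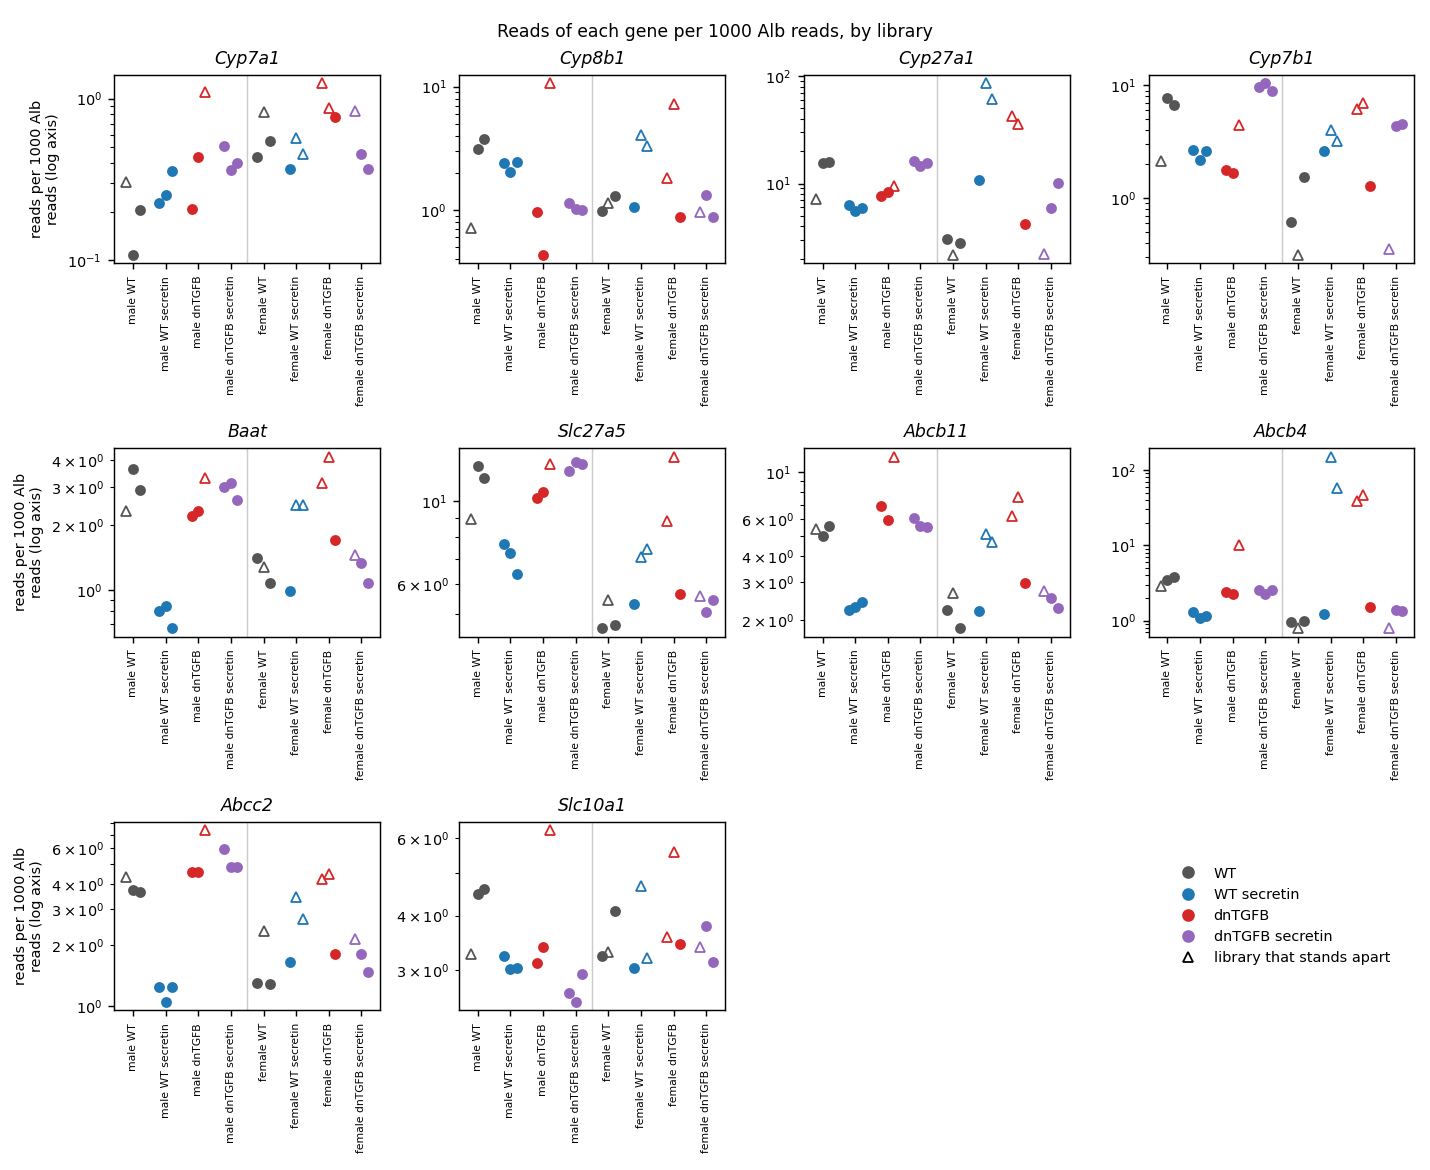
Reads of each gene per 1000 Alb reads in every library, on a log axis, by group, with male groups left of the grey line and open triangles for the 8 libraries that stand apart. Slc10a1 and Slc27a5 form narrow bands (2.46-fold and 2.87-fold), whereas Abcb4 and Cyp27a1 are high in the 4 female libraries rich in heart muscle transcripts and Cyp7b1 is highest in male dnTGFB secretin. A ratio is also high where Alb is low. Alb was 346 to 1106 CPM in those 4 libraries, and Cyp27a1 in CPM overlapped between all female groups. In male dnTGFB secretin Alb was 1756 to 1778 CPM, and Cyp7b1 in CPM lay below male WT secretin.

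Tests on the Alb scale move all genes, so the members' counts are read against a shifted background. In males, with all libraries, edgeR called 0 of the 10 genes in each comparison (0, 2 and 1 at an unadjusted p under 0.05), where 9.63% of all genes were called for dnTGFB against WT, 12.3% for secretin in WT and 18.1% for secretin in dnTGFB. The medians over the 10 were 0.24, −1.13 and −0.07, against −1.18, −2.07 and 1.41 over all genes. The 7 genes that fell with secretin in male dnTGFB were thus not called relative to Alb. Without the libraries that stand apart 6 were lower in dnTGFB (88.2% of all genes), 9 lower with secretin in WT (90.5%) and 4 higher with secretin in dnTGFB (91.7%). The shares of the 10 were thus below or near those of all genes. The 4 were Cyp7b1 at 2.51 ± 0.14, Cyp27a1 at 0.95 ± 0.09, Cyp8b1 at 0.60 ± 0.27 and Slc27a5 at 0.26 ± 0.09.

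In females 3 genes were called higher relative to Alb in dnTGFB, where 68.5% of all genes were: Abcb4 by 4.99 ± 1.31 (adjusted p = 0.00189), Cyp27a1 by 3.36 ± 1.20 (0.0143) and Cyp7b1 by 2.56 ± 1.18 (0.0457). With secretin in WT 2 were, against 84.2% of all genes: Abcb4 by 6.25 ± 1.39 (9.36e-05) and Cyp27a1 by 4.30 ± 1.26 (0.00148). With secretin in dnTGFB Abcb4 was lower by 4.63 on the log2 scale (SE 1.28, adjusted p = 0.00939), where 8.53% of all genes were called lower. Each of these calls of Abcb4 sets a group with 2 libraries rich in heart muscle transcripts against a group without. Without the libraries that stand apart 0 were called for dnTGFB against WT (0.0% of all genes, and 0 at an unadjusted p under 0.05), 1 for secretin in WT (Cyp27a1, 1.89 ± 0.60, where 68.7% were) and 0 for secretin in dnTGFB (1.49%, and 1 at an unadjusted p under 0.05). Between the sexes, edgeR called 0 with all libraries (3.66%, and 1 at an unadjusted p under 0.05) and, without those that stand apart, 8 higher and 1 lower in males (30.9% in either direction).

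The other genes of the pathway were counted from 3 lists. Of all 18777 genes tested in males, 1606 rose and 1589 fell in dnTGFB against WT. With secretin 666 rose and 502 fell in WT, and 1900 rose and 2337 fell in dnTGFB. Of 13 other bile acid synthesis enzymes 1 rose and 0 fell in male dnTGFB against WT, 0 rose and 1 fell with secretin in male WT, and 2 rose and 6 fell with secretin in male dnTGFB. Slc27a2, a very long chain acyl-CoA synthetase, rose by 1.40 ± 0.37 in male dnTGFB (adjusted p = 0.0271) and fell by 2.42 ± 0.38 with secretin there (0.00282). With secretin in male WT the cholesterol 25-hydroxylase gene Ch25h fell by 1.70 ± 0.29 (0.00743). In male dnTGFB, Akr1d1, the steroid 5β-reductase, fell by 1.84 ± 0.56 with secretin, and the aldo-keto reductase Akr1c6 fell by 1.48 ± 0.39. The list's medians were 0.31, −0.17 and −0.51, nearer to 0 than those of the 10 genes.

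Of 14 other hepatocyte bile transporters tested in males, 0 rose and 1 fell in dnTGFB, 2 rose and 0 fell with secretin in WT, and 1 rose and 5 fell with secretin in dnTGFB. The counts over all genes are those given for the enzymes. This list holds Abcc3, Slc51a and Slc51b, which are also listed as genes of cholangiocyte bile acid transport. Its counts and medians are thus not of hepatocyte genes alone. Abcb1a, a multidrug exporter, fell by 0.74 ± 0.22 in male dnTGFB and rose by 0.86 ± 0.21 with secretin in male WT. The organic anion transporter Slco1a1 also rose with secretin in male WT, by 1.24 ± 0.30. With secretin in male dnTGFB the canalicular sterol exporter Abcg5 fell by 3.20 ± 1.05 (adjusted p = 0.0498), Slc22a7 by 3.10 ± 0.62 and Slco1a4 by 2.78 ± 0.70. The medians were 0.19, 0.18 and −1.07.

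Among 15 regulators of bile acid synthesis and export, 1 rose and 0 fell with secretin in male WT, where 3.55% of all genes were called higher. The regulator that rose was the transcription factor gene Onecut1, by 2.36 ± 0.55 (adjusted p = 0.0290). Mafg, a repressor of bile acid synthesis genes, rose by 0.51 ± 0.16 with secretin in male dnTGFB (0.0391). In the 3 female comparisons edgeR called 0 genes of any of these lists. Higher in males than in females were Abcg5 by 1.81 ± 0.44, Slco1a1 by 1.06 ± 0.33 and Mafg by 0.37 ± 0.12. Lower were Slc51a at −2.12 ± 0.77 and the nuclear receptor genes Ppara at −1.35 ± 0.42 and Nr1h3 at −0.59 ± 0.15. The peroxisomal enzymes Hsd17b4 at −0.78 ± 0.16 and Amacr at −0.71 ± 0.24 were lower too. With all libraries 1592 of 20222 genes were called higher and 3579 lower. Heart muscle markers were also lower in males, and their part in these values was not tested. Without the libraries that stand apart Abcg5 was at 1.07, Slco1a1 at 1.62 and Nr1h3 at −0.62. Mafg, Slc51a, Ppara, Hsd17b4 and Amacr were not among the up to 3 largest called changes of their lists there.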

How the data were processed

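The authors deposited 1 table of raw read counts per gene for each of 24 libraries. No aligner, counter or strand setting is given in the sources used here. Of 49315 gene identifiers, 49056 are in GENCODE release M21 (GRCm38), which gave the symbols, coordinates and exon lengths. Groups follow the titles and the design text; the genotype label disagrees with the title in the 12 libraries of WT secretin and of dnTGFB without secretin. Sexes were analysed separately, as the design text states, and together only for the contrast of the sexes. The main test was edgeR 4.0.16 (R 4.3.3; TMM scaling, edgeR's expression filter, robust quasi-likelihood F test) with Benjamini-Hochberg adjustment over all genes and a threshold of 0.05. Standard errors are approximate, the size of the log2 fold change over the root of its F value. The other tests were the same fit scaled by Alb counts and DESeq2 1.42.0. In data simulated with a uniform spread and no library apart, the edgeR fit was checked to recover known changes. That check does not cover the spread of the real groups. Libraries were compared after thinning to 1429218 counts. The members, the lists and the 8 libraries set apart were chosen with earlier results of these data known. All members are named; other pathway genes are the largest called changes, up to 3 per list and comparison. Some results of the list of regulators are not reported here. The alternatives were other scalings, no filter, a replicate block, and leaving out each library.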

Additional observations from a re-analysis of the deposited data

Results flagged for a closer look

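For Cyp8b1 the change with secretin in dnTGFB differed between the groups labelled male and those labelled female. The log2 fold change was −2.53 in males and 0.58 in females, a difference of −3.11 ± 0.83 (edgeR interaction, adjusted p = 0.0320). The same holds for Slc10a1, at −2.68 in males and 1.23 in females, a difference of −3.91 ± 1.16 (adjusted p = 0.0448). Alb moved the same way, at −2.35 in males and 1.35 in females in the fits of each sex, and 7.75% of all genes were called in this test of the difference. Both differences include female dnTGFB libraries 1 and 2, which are rich in heart muscle transcripts and held the Y-linked gene Ddx3y at 46.8 and 58.3 CPM. Each group is 1 pool of mice, so sex and pool cannot be told apart here. Without the libraries that stand apart the estimates were negative in both sexes. Cyp8b1 was then at −2.22 in males and −0.62 in females, and Slc10a1 at −3.07 and −0.96. The differences were −1.60 and −2.11, with a single female dnTGFB library left.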

How the results depend on the processing

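Counts of the 10 genes called are given with the count over all libraries first. Where no share of all genes is given for a setting in this section or above, its count is not read as particular to the 10 genes. For male dnTGFB against WT (0) they were 10 without the 8 libraries that stand apart, 1 with DESeq2 size factors, 1 with library totals, 2 with DESeq2 and 0 to 7 on leaving out each library. For secretin in male WT (1) they were 10, and 3 with library totals, and 1 to 3 on leaving out each library. For secretin in male dnTGFB (7) the count was 3 with no filter on low counts and 2 to 9 on leaving out each library. The share of all genes called lower moved as well, from 1.65% to 18.4% on leaving out each library. For secretin in female WT (0) DESeq2 gave 7 and leaving out each library 0 to 9. For male against female (1) it was 8 without the libraries that stand apart, 0 with library totals and 1 to 4 on leaving out each library. Relative to Alb, the counts without the libraries that stand apart were 6, 9 and 4 in the male comparisons (0, 0 and 0), 0, 1 and 0 in the female ones (3, 2 and 1) and 9 between the sexes (0). Leaving out each library then gave 0 to 2, 0 to 6 and 0 to 1 in males, 1 to 3, 2 to 2 and 0 to 2 in females and 0 to 1 between the sexes. Scaled by the hepatocyte sum, secretin in female dnTGFB gave 0 and the sexes 2. The cause of these shifts was not tested, but fewer libraries per group and a changed spread are part of the construction.

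Directions that turned belonged to estimates that were not called with all libraries. Cyp7b1 in male dnTGFB against WT was −0.13 with library totals, which move the median of all genes to −0.44. For secretin in male WT, Baat was 0.46, Abcb4 0.92 and Abcc2 0.90 without the libraries that stand apart; Abcb4 was 0.32 with library totals. On leaving out each library Baat ran from −0.80 to 0.45, Abcb11 from −0.29 to 1.36, Abcb4 from −0.43 to 0.92 and Abcc2 from −0.92 to 0.90. For secretin in male dnTGFB, Cyp7b1 was 0.017 with no filter, 0.93 with library totals (the median of all genes moved to 0.75) and −0.33 to 0.21 on leaving out each library. In females, without the libraries that stand apart, Cyp7a1 was 0.051 for dnTGFB against WT and −1.88 for secretin in dnTGFB, where leaving out each library gave −0.76 to 2.44. Between the sexes Abcb4 was 0.47 without the libraries that stand apart, and Slc10a1 was 0.018 with DESeq2 size factors, 0.0057 with DESeq2 and −0.22 to 0.32 on leaving out each library.

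Replicate numbers do not pair the libraries. The deviations of same-numbered libraries from their group means correlated at −0.15 to 0.21 in males, with 2 of 18 pairs over 0.1, and at −0.79 to 0.82 in females, with 5 of 18. With the replicate block, 5 of the 10 genes were called for secretin in male dnTGFB, and 0 relative to Alb for secretin in female dnTGFB. Under that block Abcb4 for secretin in male WT was 0.12, Cyp7b1 for secretin in male dnTGFB 0.033 and Slc10a1 between the sexes 0.0018. Depth limits Cyp7a1 most, with 3 reads in male dnTGFB library 3.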
